A study of Mus musculus with 12 samples.

Results

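The 37 genes described here are interferon-stimulated genes, a set that many cell types switch on together when they sense interferon. They were chosen by name, and each symbol was matched to the Ensembl identifiers of the count table. All 37 were found among the 51912 identifiers, and all 37 passed the filter on low counts that left 18098 genes for testing. RNA of 12 mouse livers had been sequenced by a 3' mRNA method, which counts the ends of polyadenylated transcripts. Wild-type and Mlkl-/- mice ate a normal chow diet (ND) or one rich in fat (HFD, 36% fat and 59% of its energy from lipid), with 3 animals in each of the 4 groups. Feeding began at 8 to 9 weeks of age, and the time label of each library reads 25 weeks on the diet, where the series as a whole gives 16 to 25 weeks. The animals had been fed when tissue was taken and had been picked on their mean organ weights, the Mlkl-/- allele is given without further detail, and all values are of whole liver. MLKL is the pseudokinase that permeabilises the plasma membrane in necroptosis, and Mlkl itself held 72 to 252 counts in the 6 wild-type libraries and 9 to 34 in the 6 Mlkl-/- libraries.

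Interferons are secreted when cells detect nucleic acids of viruses or misplaced nucleic acids of their own. Type I and type III interferons act through receptors and the kinases JAK1 and TYK2 on STAT2, which joins IRF9 in a complex that binds the interferon-stimulated response element. Interferon gamma acts through another DNA element, the gamma-activated site. The products of the genes that follow degrade viral RNA, block its translation, mark proteins with ISG15 or attack the vacuoles of intracellular microbes, and USP18 and other products turn the signal down again. Hepatocytes, Kupffer cells and endothelial cells of the liver all carry interferon receptors.

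A promoter motif was common among the members. RefSeq promoters of the GRCm38.p6 build, each 300 bases long with 250 bases before and 50 after the annotated start, were found for 27 of the 37 members. The core of the response element, GAAA, any 2 bases and GAAA on either strand, stood in the promoters of 17 of these 27 genes (63%), and in those of 3.99% of the 27025 genes in the table. The longer form GAAA, any 2 bases and GAAACT, which contains the core, stood in 10 of the 27 (37%) against 0.303% of all genes. The gamma-activated site, TTCNNNGAA, stood in 5 of the 27 (18.5%) against 9.55%. A match of letters describes the sequence and does not show binding.

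The promoters of Gbp3, Oas1a, Oas1g and Igtp are printed because these 4 genes carry the core element and had the lowest adjusted p-values for diet in wild-type livers among the called genes that do. Each line gives the 250 bases before the start on the gene's own strand, 5' to 3', and capitals mark the core element or its reverse complement. The stretches are chr3:142559794-142560043 on the plus strand for Gbp3, chr5:120907526-120907775 on the minus strand for Oas1a, chr5:120887614-120887863 on the minus strand for Oas1g and chr11:58199306-58199555 on the plus strand for Igtp.
Gbp3: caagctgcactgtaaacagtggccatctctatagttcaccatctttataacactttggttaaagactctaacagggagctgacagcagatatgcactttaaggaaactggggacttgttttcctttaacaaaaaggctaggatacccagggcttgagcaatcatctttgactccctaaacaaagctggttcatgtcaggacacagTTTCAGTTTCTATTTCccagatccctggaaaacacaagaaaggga
Oas1a: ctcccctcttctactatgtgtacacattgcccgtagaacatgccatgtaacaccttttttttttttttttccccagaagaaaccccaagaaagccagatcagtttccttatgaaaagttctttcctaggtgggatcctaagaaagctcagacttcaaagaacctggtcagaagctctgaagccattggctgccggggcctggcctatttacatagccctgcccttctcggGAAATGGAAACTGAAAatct
Oas1g: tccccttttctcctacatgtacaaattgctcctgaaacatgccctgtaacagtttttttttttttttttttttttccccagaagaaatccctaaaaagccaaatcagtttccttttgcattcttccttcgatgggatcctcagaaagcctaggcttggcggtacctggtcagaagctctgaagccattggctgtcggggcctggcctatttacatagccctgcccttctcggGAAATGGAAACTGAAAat
Igtp: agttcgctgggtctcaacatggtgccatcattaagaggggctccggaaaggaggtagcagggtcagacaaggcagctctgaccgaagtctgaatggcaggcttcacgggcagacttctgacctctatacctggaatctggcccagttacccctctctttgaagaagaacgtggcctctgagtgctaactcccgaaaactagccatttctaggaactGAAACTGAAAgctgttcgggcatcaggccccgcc
Oas1a and Oas1g carried the same pair of overlapping elements, which began 20 and 14 bases before the start in Oas1a and 18 and 12 in Oas1g. Gbp3 held its overlapping pair on the other strand, 45 and 39 bases before the start. Another RefSeq promoter of Gbp3 held no core element and is not printed. Igtp held 1 element 34 bases before the start and, 45 bases before it, a gamma-activated site.

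Further members are shown with 5 bases on each side of the core, to let the element be compared between called and uncalled genes.
Isg15: aaaagGAAACCGAAAcagaa
Ifit3: gtaagTTTCACTTTCctctt
Ifit3b: gtaagTTTCACTTTCctctt
Ifit1: ttcagTTTCACTTTCcagtc
Gbp2: tttagTTTCACTTTCactgt
Stat2: cctggTTTCAGTTTCctttc
Of these genes only Ifit3 passed the diet test in wild-type livers described below, and Isg15, Ifit3b, Ifit1, Gbp2 and Stat2 did not. A gene that was not called can still have changed. Ifit3b and Gbp2 had log2 fold changes of 0.91 and 1.12, against 0.98 for Ifit3, with all wild-type HFD livers above all wild-type ND livers. For Isg15 the middle element of 3 overlapping ones is shown. For Ifit3, Ifit3b and Ifit1 the element farther from the start is shown, of 2 in each promoter. The windows of Ifit3 and its near copy Ifit3b are the same letter for letter. Among the members with a promoter in the table, the core stood in 5 of the 7 that were called for diet in wild-type livers and in 12 of the 20 that were not. The called genes Ifit2 and Ifi44 held none in this window. For 10 members, Usp18, Oas2, Mx1, Mx2, Ifi27, Ifi27l2a, Ifi27l2b, Dhx58, Rtp4 and Parp14, no promoter was used here.

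**Figure D1:**
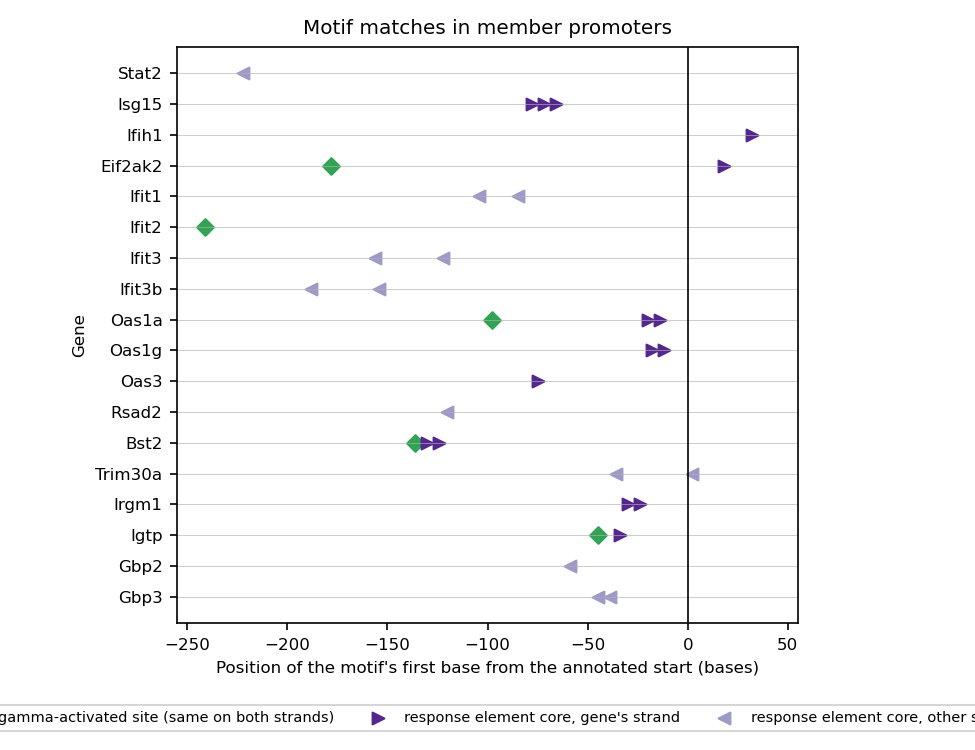
Positions of motif matches in the promoters of the 18 members with at least 1 match, from 250 bases before to 50 bases after the annotated start (line at 0, x axis in bases, 1 gene per row). Triangles mark the first base of the response element core on the gene's strand or the other strand, diamonds mark the gamma-activated site, and the Oas1a and Oas1g triangles sit at matching places just before the start.

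Library totals ran from 19435391 to 32120426 counts, and a member held from 6 counts (Mx1 and Oas3 in their lowest libraries) to 3499 (Bst2 in its highest). Levels are given in CPM, counts scaled to a common library total, with TMM library sizes, a scaling that sets the bulk of genes equal between libraries. The tests are edgeR's quasi-likelihood tests on the raw counts of all 12 libraries, and a gene is called where its p-value, adjusted over the 18098 genes (Benjamini-Hochberg), is under 0.05. At 8 loci, mostly annotated small RNAs, 6 libraries stood apart with 3484 to 9239 summed CPM against 378 to 656 in the other 6. The high level was found in the whole Mlkl-/- HFD group, in Mlkl-/- ND replicate 1 and in replicates 2 and 3 of wild-type HFD. A number of unstated meaning follows the diet in the library titles. It is 23 or 27 on ND and 25 or 29 on HFD, so the number itself cannot be told apart from diet. By a choice made here, 23 and 25 were joined as a lower level and 27 and 29 as a higher level, each present in all 4 groups. Results within these levels stand beside the values they touch.

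In wild-type livers, at least 1 member was called higher on HFD than on ND in each of the 8 groups by role but that of the signalling factors. Of the 37 members 13 were called higher and 0 lower, where 2.02% of all genes tested were called higher and 2.21% lower. The 13 were Usp18, Dhx58, Ifit2, Ifit3, Oas1a, Oas1g, Rtp4, Ifi44, Ifi27, Ifi27l2a, Ifi27l2b, Igtp and Gbp3, with log2 fold changes from 0.70 to 2.68. The median over all 37 was 0.73 on the log2 scale, against -0.01 over all genes, and 34 members had a positive value, against 49% of all genes. In 25 members the 3 HFD libraries all lay above the 3 ND libraries, and in 0 members below, against a background of 14% above. Unadjusted p-values under 0.05 with a higher level on HFD were found for 23 members and for 9.61% of all genes. Leaving out 1 wild-type library lowered the count of calls among the members and among all genes. It left 3 members without wild-type HFD replicate 2 (0.244% of all genes called higher), 3 without wild-type ND replicate 1 (0.643%), 3 without wild-type ND replicate 2 (0.377%), 4 without wild-type HFD replicate 1 (1.12%) and 5 without wild-type ND replicate 3 (0.394%). With the level at the 8 loci as a term 8 members and 0.525% of all genes were called higher, and with library size in place of TMM 20 members and 5.09%. In whole liver, more cells of a type and more RNA per cell cannot be told apart.

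**Figure D2:**
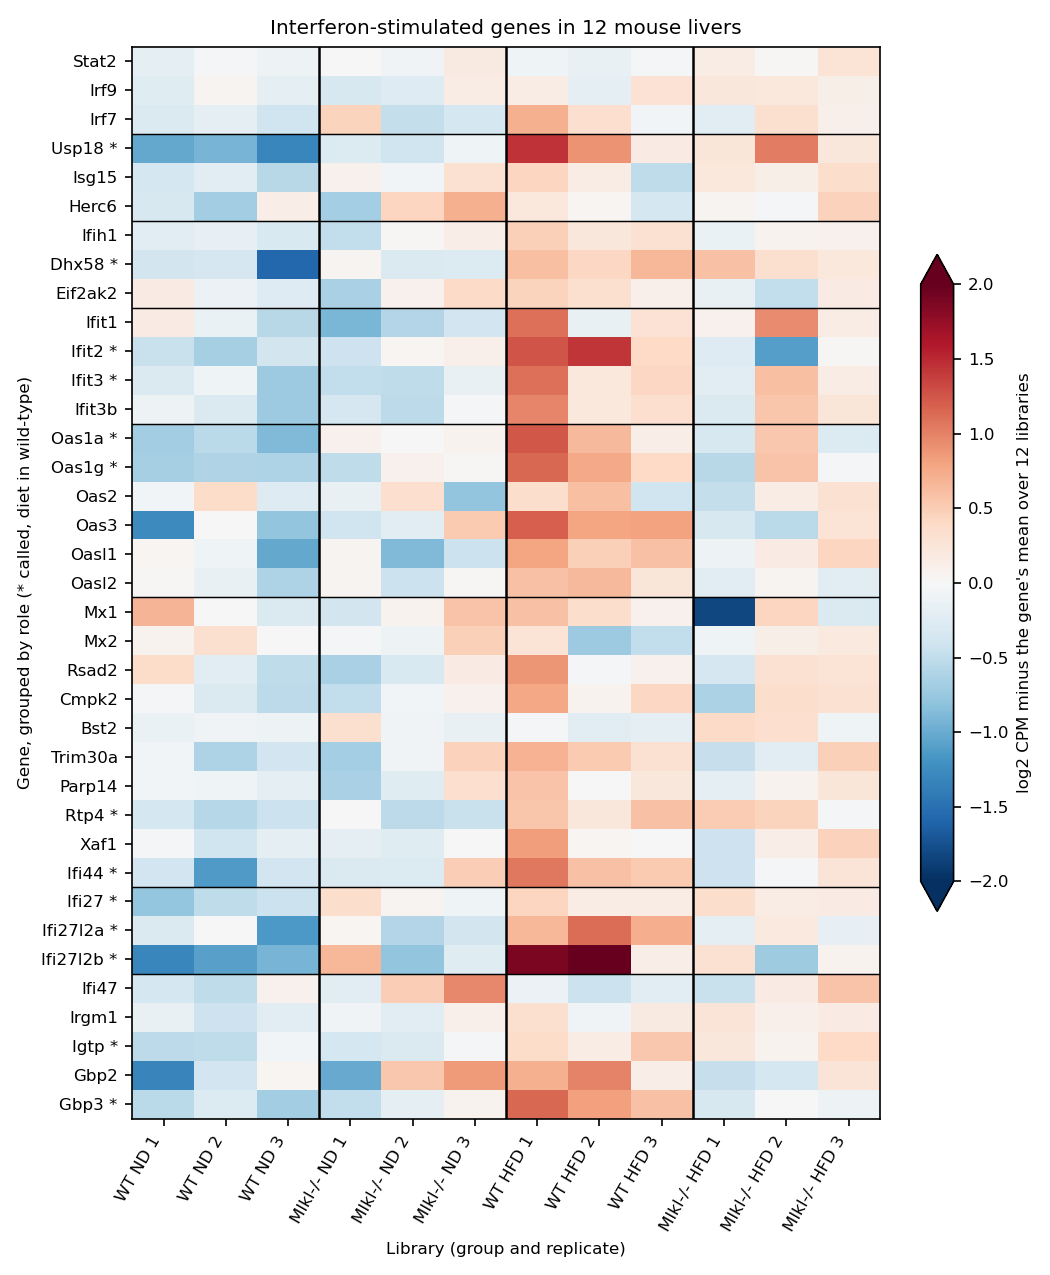
Log2 CPM of each member minus its own mean over 12 libraries (colour scale in log2 units, red above and blue below the mean), with genes in rows grouped by role and libraries in columns. An asterisk marks the 13 genes called for diet in wild-type livers. The wild-type ND columns are mostly blue and the wild-type HFD columns mostly red, with the deepest red in wild-type HFD replicate 1.

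None of the 3 signalling factors among the members was called in any of the 7 comparisons. Stat2, the partner of IRF9 in that complex, stood at 44.9, 50.1 and 47.7 CPM in wild-type ND and at 48.2, 46.2 and 50.3 CPM in wild-type HFD. These 2 ranges overlapped, with a log2 fold change of 0.02 ± 0.12 (SE). Stat2 stood at 51.5, 48.7 and 57.7 CPM in Mlkl-/- ND and at 56.7, 51.9 and 61.8 CPM in Mlkl-/- HFD. Irf9, the DNA-binding subunit of the complex, was at 25.2, 31 and 25.8 CPM in wild-type ND and at 33.0, 26.2 and 36.4 CPM in wild-type HFD. It reached 23.7, 24.9 and 32.9 CPM in Mlkl-/- ND and 34.6, 34.3 and 32.2 CPM in Mlkl-/- HFD, and neither diet comparison of Irf9 passed. Irf7, the factor that amplifies type I interferon production, stood at 15.3, 16.6 and 14.2 CPM in wild-type ND and at 30.7, 23.7 and 18.1 CPM in wild-type HFD. The 2 wild-type groups of Irf7 did not overlap, but its log2 fold change of 0.65 ± 0.24 did not pass (edgeR adjusted p = 0.143). Irf7 in Mlkl-/- livers was at 25.6, 13.5 and 14.7 CPM on ND and 16.2, 23.3 and 20.03 CPM on HFD. ND replicate 1 lay above the 3 HFD livers and the other ND livers below them, so the groups overlapped.

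Usp18, the protease that removes ISG15 from proteins and shuts the type I receptor down, had the lowest adjusted p of the members. It stood at 2.52, 2.70 and 2.06 CPM in wild-type ND and at 14.3, 9.83 and 5.88 CPM in wild-type HFD. The rise was 2.05 ± 0.31 on the log2 scale (edgeR adjusted p = 0.00538), with the 3 HFD livers above all ND livers and spread over a wide range. The Mlkl-/- livers held Usp18 at 4.32, 3.94 and 4.90 CPM on ND and at 6.15, 10.7 and 6.10 CPM on HFD. The Mlkl-/- groups did not overlap either, with a log2 fold change of 0.80 ± 0.30 that was not called (edgeR adjusted p = 0.257). Isg15, a ubiquitin-like protein that interferon-induced enzymes attach to other proteins, stood at 5.55, 6.19 and 4.85 CPM in wild-type ND and at 9.69, 7.92 and 5.01 CPM in wild-type HFD. Wild-type HFD replicate 3 lay inside the ND range, and the log2 fold change of Isg15 was 0.45 ± 0.22 (edgeR adjusted p = 0.263). Isg15 in Mlkl-/- livers was at 7.61, 6.91 and 8.88 CPM on ND and at 8.30, 7.80 and 9.11 CPM on HFD. Herc6, the mouse ligase for ISG15, ranged from 8.94 to 23.8 CPM over the 12 libraries, with a log2 fold change of 0.24 ± 0.31 in wild-type livers. Of these 3 genes only Usp18 was called.

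Dhx58, which encodes the RNA helicase LGP2, was the called gene among the RNA sensors. It stood at 6.67, 6.83 and 2.85 CPM in wild-type ND and at 13.2, 11.6 and 13.8 CPM in wild-type HFD, a log2 fold change of 1.25 ± 0.26 (edgeR adjusted p = 0.0194). Wild-type ND replicate 3 was low, and the HFD libraries were close together and above all ND libraries. Dhx58 in Mlkl-/- livers was at 9.04, 7.09 and 7.15 CPM on ND and at 13, 10.9 and 10.0 CPM on HFD, again without overlap (0.54 ± 0.26, not called). Ifih1, the sensor MDA5 of long double-stranded RNA, missed the threshold at 0.57 ± 0.15 in wild-type livers (edgeR adjusted p = 0.0503), with all HFD libraries above all ND libraries. Eif2ak2, the kinase PKR that halts translation, was at 0.36 ± 0.23.

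The IFIT genes, whose products bind foreign RNA and block its translation, lie together on chromosome 19 between 34550694 (start of Ifit2) and 34650009 (end of Ifit1) of mm10. In wild-type livers 2 of the 4 were called, and the median of the 4 was 0.94 on the log2 scale. Ifit2 stood at 2.01, 1.72 and 2.13 CPM in wild-type ND and at 6.77, 7.62 and 3.66 CPM in wild-type HFD (log2 fold change 1.62 ± 0.32, edgeR adjusted p = 0.0164). The values of Ifit2 in Mlkl-/- livers were 2.06, 2.83 and 2.96 CPM on ND and 2.29, 1.25 and 2.80 CPM on HFD, with no HFD liver above the ND range. Ifit3 stood at 9.31, 10.8 and 6.91 CPM in wild-type ND and at 24.7, 13.2 and 15.2 CPM in wild-type HFD (0.98 ± 0.26, edgeR adjusted p = 0.0483). Ifit3 was at 8.15, 8.02 and 10.4 CPM in Mlkl-/- ND and at 9.73, 17.5 and 12.7 CPM in Mlkl-/- HFD, where replicate 2 was highest. Its near copy Ifit3b was at 7.09, 6.24 and 4.55 CPM in wild-type ND, at 15, 8.80 and 9.64 CPM in wild-type HFD, at 5.99, 5.27 and 7.46 CPM in Mlkl-/- ND and at 6.25, 11.2 and 9.03 CPM in Mlkl-/- HFD. Ifit3b, at 0.91 ± 0.26 in wild-type livers (edgeR adjusted p = 0.0623), had its HFD libraries in the same order as Ifit3 within each genotype, and 14.9% of the 50-base windows in the last 500 bases of the annotated Ifit3 transcripts also occur in Ifit3b, so reads there could belong to either gene, while 0% of those of Ifit3b occur in Ifit3. Ifit1 stood at 7.82, 6.38 and 4.71 CPM in wild-type ND and at 15.1, 6.31 and 8.53 CPM in wild-type HFD. It was at 3.68, 4.61 and 5.33 CPM in Mlkl-/- ND and at 7.39, 13.6 and 7.75 CPM in Mlkl-/- HFD. Ifit1 was the 1 member whose log2 fold change exceeded 1 in Mlkl-/- livers (1.07 ± 0.33, edgeR adjusted p = 0.17), against 0.66 ± 0.32 in wild-type livers, and its groups overlapped in wild-type livers only.

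The oligoadenylate synthetases make the second messenger that activates RNase L. All 6 members of the OAS family had positive log2 fold changes in wild-type livers, from 0.23 (Oas2) to 1.71 (Oas3), with a median of 1.21, and 2 of the 6 were called. Oas1a stood at 1.79, 2.01 and 1.57 CPM in wild-type ND and at 7.09, 4.67 and 3.23 CPM in wild-type HFD (1.48 ± 0.31, edgeR adjusted p = 0.0201). Oas1a in Mlkl-/- livers was at 3.14, 2.92 and 3.12 CPM on ND and at 2.34, 4.33 and 2.43 CPM on HFD, and the ND livers of this genotype lay above those of wild-type. Oas1g stood at 1.37, 1.42 and 1.41 CPM in wild-type ND and at 4.97, 3.79 and 2.94 CPM in wild-type HFD (1.48 ± 0.32, edgeR adjusted p = 0.0231). Oas1g was at 1.52, 2.35 and 2.25 CPM in Mlkl-/- ND and at 1.48, 3.32 and 2.14 CPM in Mlkl-/- HFD. These 2 genes carry the near-identical promoters printed above and also share transcript ends: 56.1% of the 50-base windows in the last 500 bases of Oas1a occur in Oas1g, and 30.2% the other way round, so their separate values are uncertain. Oasl1, an OAS-like protein without synthetase activity, stood at 7.65, 6.97 and 3.60 CPM in wild-type ND and at 13, 10.4 and 11.2 CPM in wild-type HFD (0.93 ± 0.28, edgeR adjusted p = 0.0727). It was at 7.76, 3.99 and 5.49 CPM in Mlkl-/- ND and at 6.96, 8.32 and 10.0 CPM in Mlkl-/- HFD. Oas3 lay just outside the threshold in wild-type livers at 1.71 ± 0.46 (edgeR adjusted p = 0.0502) and rests on 6 to 45 counts per library.

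The IFI27 family encodes small proteins of the mitochondrial and nuclear membranes, and its 3 genes are neighbours on chromosome 12 (103434211 to 103457223 in mm10). All 3 were called in wild-type livers, and no other group by role had all its members called. Ifi27l2b stood at 6.58, 7.66 and 8.58 CPM in wild-type ND and at 60.8, 67.8 and 18.0 CPM in wild-type HFD. Its log2 fold change of 2.68 ± 0.53 was the largest among the 37 members (edgeR adjusted p = 0.0266), and replicate 3 lay far below the other two. Ifi27l2b in Mlkl-/- livers was at 26.0, 9.48 and 13.8 CPM on ND and at 20.2, 9.96 and 17.3 CPM on HFD, with all 3 ND livers above those of wild-type. Ifi27l2a stood at 2.14, 2.65 and 1.15 CPM in wild-type ND and at 4.21, 5.80 and 4.44 CPM in wild-type HFD (1.30 ± 0.31, edgeR adjusted p = 0.0301). Ifi27l2a was at 2.70, 1.73 and 2.01 CPM in Mlkl-/- ND and at 2.29, 3.03 and 2.35 CPM in Mlkl-/- HFD. Ifi27 stood at 38.2, 46.1 and 48.5 CPM in wild-type ND and at 87.8, 72.3 and 73.0 CPM in wild-type HFD (0.81 ± 0.15, edgeR adjusted p = 0.0125). In Mlkl-/- livers Ifi27 was at 84.0, 67.6 and 61.9 CPM on ND and at 83.9, 72.7 and 73.3 CPM on HFD, and the 3 wild-type ND livers were the lowest of the 12.

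The interferon-inducible GTPases coat and disrupt the vacuoles of intracellular microbes, and 2 of the 5 members of this group were called in wild-type livers. Gbp3, a guanylate-binding protein, stood at 3.76, 4.52 and 3.37 CPM in wild-type ND and at 12.3, 9.74 and 8.34 CPM in wild-type HFD (1.39 ± 0.22, edgeR adjusted p = 0.00615). Gbp3 in Mlkl-/- livers was at 3.88, 4.83 and 5.76 CPM on ND and at 4.39, 5.49 and 5.15 CPM on HFD, a log2 fold change of 0.05 ± 0.22. The 3 wild-type HFD livers lay above the 9 other livers. Igtp, an immunity-related GTPase, stood at 18.4, 18.7 and 25.6 CPM in wild-type ND and at 34.3, 29.3 and 38.6 CPM in wild-type HFD (0.70 ± 0.17, edgeR adjusted p = 0.0299). Igtp was at 20.8, 21.8 and 26.2 CPM in Mlkl-/- ND and at 31.2, 28.1 and 34.9 CPM in Mlkl-/- HFD, without overlap in either genotype. Igtp and Irgm2 overlap on the same strand in the annotation, so its value is uncertain. Gbp2 (1.12 ± 0.45), Irgm1 (0.41 ± 0.14) and Ifi47 (-0.02 ± 0.29) were not called in wild-type livers.

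Among the 10 other antiviral effectors, Rtp4 and Ifi44 were called in wild-type livers. Rtp4, a negative regulator of the interferon response, stood at 8.72, 7.51 and 8.32 CPM in wild-type ND and at 16.5, 13.1 and 16.8 CPM in wild-type HFD (0.92 ± 0.19, edgeR adjusted p = 0.0194). Rtp4 in Mlkl-/- livers was at 11.3, 7.75 and 8.21 CPM on ND and at 16.0, 15.3 and 11.0 CPM on HFD, with a log2 fold change of 0.64 ± 0.19 that was not called (edgeR adjusted p = 0.154). Rtp4 lies on the other strand of Masp1, an abundant liver transcript, and the strand setting used in counting is unknown here. Ifi44 stood at 1.79, 1.03 and 1.80 CPM in wild-type ND and at 5.01, 3.61 and 3.42 CPM in wild-type HFD (1.37 ± 0.32, edgeR adjusted p = 0.029). It was at 1.92, 1.95 and 3.36 CPM in Mlkl-/- ND and at 1.76, 2.31 and 2.84 CPM in Mlkl-/- HFD. The classical effectors Mx1 (0.18 ± 0.48), Rsad2 (0.45 ± 0.30) and Bst2 (-0.04 ± 0.16) were not called. Mx1 blocks influenza viruses, Rsad2 makes a chain-terminating nucleotide and Bst2 tethers budding virions. Mx2 is annotated as a polymorphic pseudogene and had the lowest log2 fold change of the members in wild-type livers (-0.39 ± 0.27). Cmpk2, Trim30a, Parp14 and Xaf1 ran from 0.40 to 0.86 on the log2 scale and were not called.

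**Figure D3:**
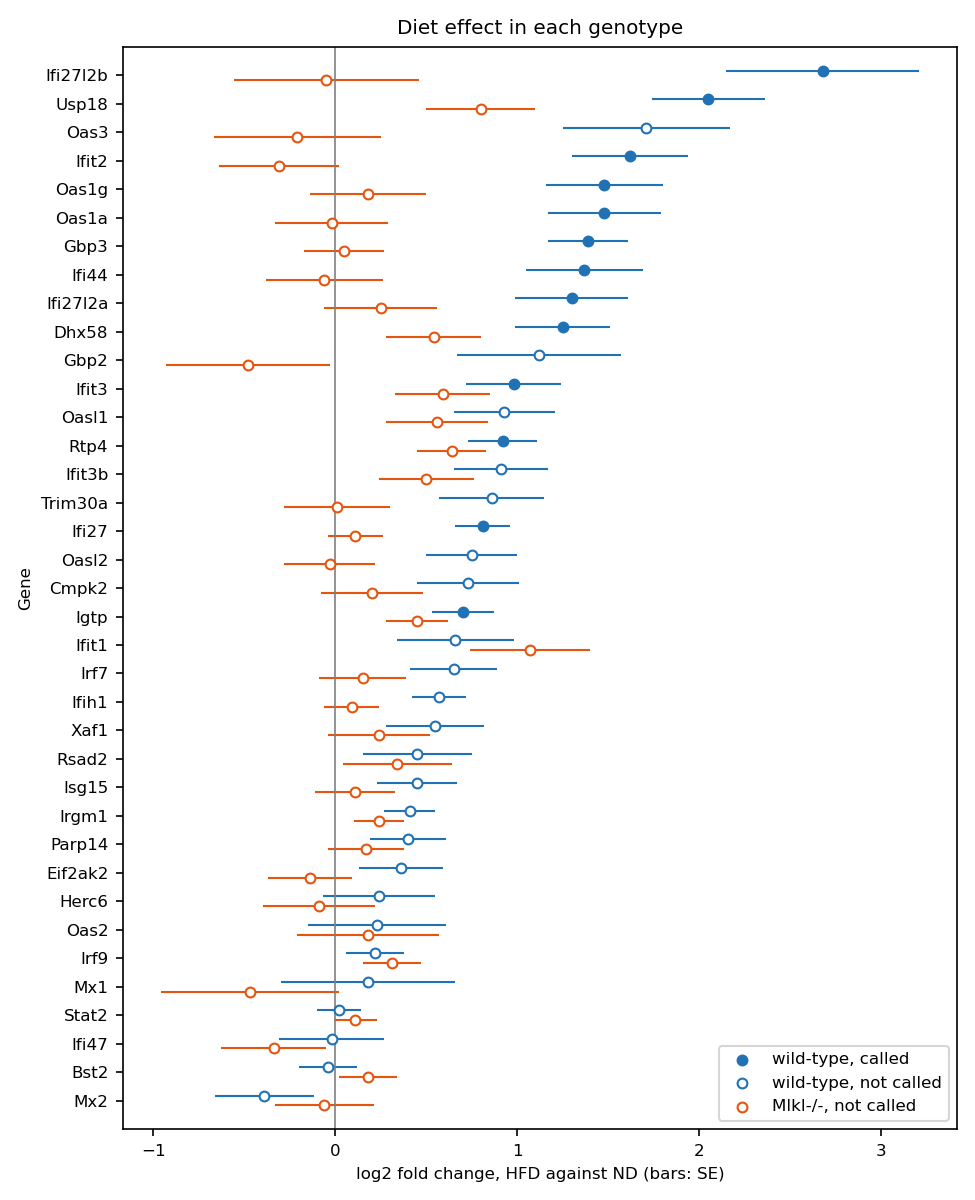
Log2 fold change of HFD against ND for each member (x axis, bars are 1 SE of the fit), in wild-type livers (blue) and Mlkl-/- livers (orange), with filled points for called genes. Genes are ordered by the wild-type value, which runs from -0.39 for Mx2 to 2.68 for Ifi27l2b, while 1 Mlkl-/- point, that of Ifit1, lies beyond 1.

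In Mlkl-/- livers 0 members were called higher or lower on HFD, where 0.21% of all genes were called higher and 0.149% lower. The median over the 37 members was 0.15, against -0.02 over all genes, and 25 members had a positive value, against 48.1% of all genes. Unadjusted p-values under 0.05 were found for 5 members, Usp18, Ifit1, Ifit3, Rtp4 and Igtp, all higher on HFD, against 6.95% of all genes higher and 6.64% lower. DESeq2 and limma-voom called 0 members as well. The library of Mlkl-/- ND replicate 1 differed more from the other libraries of its group (chi-square per degree of freedom of 115 and 137) than these did from each other (31.8). Without it 2.3% of all genes were called higher on HFD (427 genes, against 38 with it) and 302 lower (against 27), and among the members Rtp4 was called. Groups without overlap were found for 4 members, Usp18, Dhx58, Ifit1 and Igtp, against 8.02% of all genes, and for 0 members on the lower side, against 7.49%. Of the 13 members called in wild-type livers, 9 had a positive value in Mlkl-/- livers, from -0.31 (Ifit2) to 0.80 (Usp18) with a median of 0.18. A larger value in wild-type than in Mlkl-/- livers was found for 32 of the 37 members, and Stat2, Irf9, Ifit1, Mx2 and Bst2 were the other 5. A log2 fold change over 1 was found for 11 members in wild-type livers and for 1 in Mlkl-/- livers. The shares of all genes were not counted for these comparisons, and the median difference between the 2 diet effects over all genes was 0.01. Within the lower title code level the wild-type median was 0.94 (1 HFD library against 2 ND), and within the higher level it was 0.58 (2 against 1). The Mlkl-/- medians were 0.25 and 0.21 in these levels. At the low level of the 8 loci the wild-type median was 1.01 (1 HFD library against 3 ND), and the high level held no wild-type ND library. In Mlkl-/- livers it was 0.30 at the high level (3 HFD libraries against 1 ND), and the low level held no HFD library.

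The difference between the 2 diet effects was tested itself, as the interaction of genotype and diet. It called 0 members and 0 of all genes (0%), and the lowest adjusted p of a member was 0.338. Unadjusted p-values under 0.05 were found for 13 members, all with a smaller diet effect in Mlkl-/- livers, against 5.19% of all genes in that direction and 5.24% in the other. These 13 were Usp18, Ifih1, Ifit2, Oas1a, Oas1g, Oas3, Oasl2, Ifi44, Ifi27, Ifi27l2a, Ifi27l2b, Gbp2 and Gbp3. The median interaction over the members was -0.48, against 0.01 over all genes. Gbp3 (-1.33 ± 0.31) and Ifit2 (-1.93 ± 0.46) had the lowest p-values of the members for this term, and DESeq2 called these 2 genes in it, where limma-voom called 0. Without wild-type HFD replicate 1 the median interaction was -0.29.

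On HFD, 29 of the 37 members had a lower fitted level in Mlkl-/- than in wild-type livers, a count without a background over all genes, and none was called. This comparison shares the wild-type HFD libraries with the diet effect above, so it is not independent of it. The backgrounds of calls were 0.00553% of all genes higher and 0.0221% lower, limma-voom called 0 members, and the median was -0.33, against 0.01 over all genes. Unadjusted p-values under 0.05 with a lower level were found for 10 members, against 8.29% of all genes, and with a higher level for Bst2 alone, against 7.21%. Groups without overlap were found for 8 members on the lower side, namely Ifih1, Ifit2, Oas3, Oasl1, Oasl2, Ifi44, Ifi27l2a and Gbp3, against 10.8% of all genes, and on the higher side for Stat2 alone, against 10.6%. Gbp3 differed by -1.01 ± 0.21 and Ifit2 by -1.51 ± 0.32 on the log2 scale (edgeR adjusted p = 0.107 for each), and both passed in DESeq2. Without wild-type HFD replicate 3, Gbp3, Ifit2 and Ifi27l2b passed, where 147 of all genes were called lower. Without Mlkl-/- ND replicate 1, Gbp3 passed, where 64 of all genes were called lower. With all libraries, 4 of all genes were called lower. The median was -0.11 without wild-type HFD replicate 1 and -0.20 with the level at the 8 loci as a term. With library size in place of TMM it was -0.50, where the median of all genes was -0.16.

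On ND, Mlkl-/- livers were above wild-type livers without overlap in 8 members, Usp18, Isg15, Dhx58, Oas1a, Oas1g, Ifi44, Ifi27 and Ifi27l2b, against 4.93% of all genes, and below them in 0, against 5.56%. The wild-type ND libraries are shared with the diet effect in wild-type livers, so these comparisons are not independent. With edgeR 0 members were called in either direction (0% of all genes higher, 0.00553% lower), 5 had an unadjusted p under 0.05 and a higher level (2.81% of all genes), and the median was 0.15. Ifi27 was the nearest to the threshold at 0.68 ± 0.15 (edgeR adjusted p = 0.298) and passed in DESeq2, and limma-voom called 0 members. Without wild-type ND replicate 1 or Mlkl-/- ND replicate 2 the median was 0.26. Averaged over diets, 0 members were called for genotype, against 0% of all genes higher and 0.0166% lower, and the median was -0.09, which turned to 0.06 with the level at the 8 loci as a term. At an unadjusted p under 0.05, 4 members were higher and 2 lower, against 4.64% and 6.01% of all genes, and DESeq2 and limma-voom called 0. With both diets pooled, 0 members had all 6 Mlkl-/- libraries above or below all 6 wild-type libraries, against 0.0774% and 0.182% of all genes.

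Averaged over genotypes, 12 members were called higher on HFD and 0 lower, against 3.57% of all genes higher and 3.62% lower. The median was 0.44, against -0.01. Of the 12, 9 were among the 13 called in wild-type livers, and Ifit1 (0.87, edgeR adjusted p = 0.0365), Ifit3b (0.70, edgeR adjusted p = 0.034) and Oasl1 (0.74, edgeR adjusted p = 0.0356) were the other 3. Usp18 stood at 1.43 ± 0.22 (edgeR adjusted p = 0.00231) and Rtp4 at 0.78 ± 0.14 (edgeR adjusted p = 0.00443). In Usp18, Dhx58 and Igtp all 6 HFD libraries, of both genotypes pooled, lay above all 6 ND libraries, against 1.46% of all genes. In either comparison 16 members were called, and 21 in neither, without a background over all genes for these counts. Without wild-type ND replicate 3 or Mlkl-/- ND replicate 2 the average called 6 members (2.18% and 2.02% of all genes called higher), without wild-type HFD replicate 1 it called 7 (2.58%), and with the level at the 8 loci as a term 4 (0.365%).

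**Figure D4:**
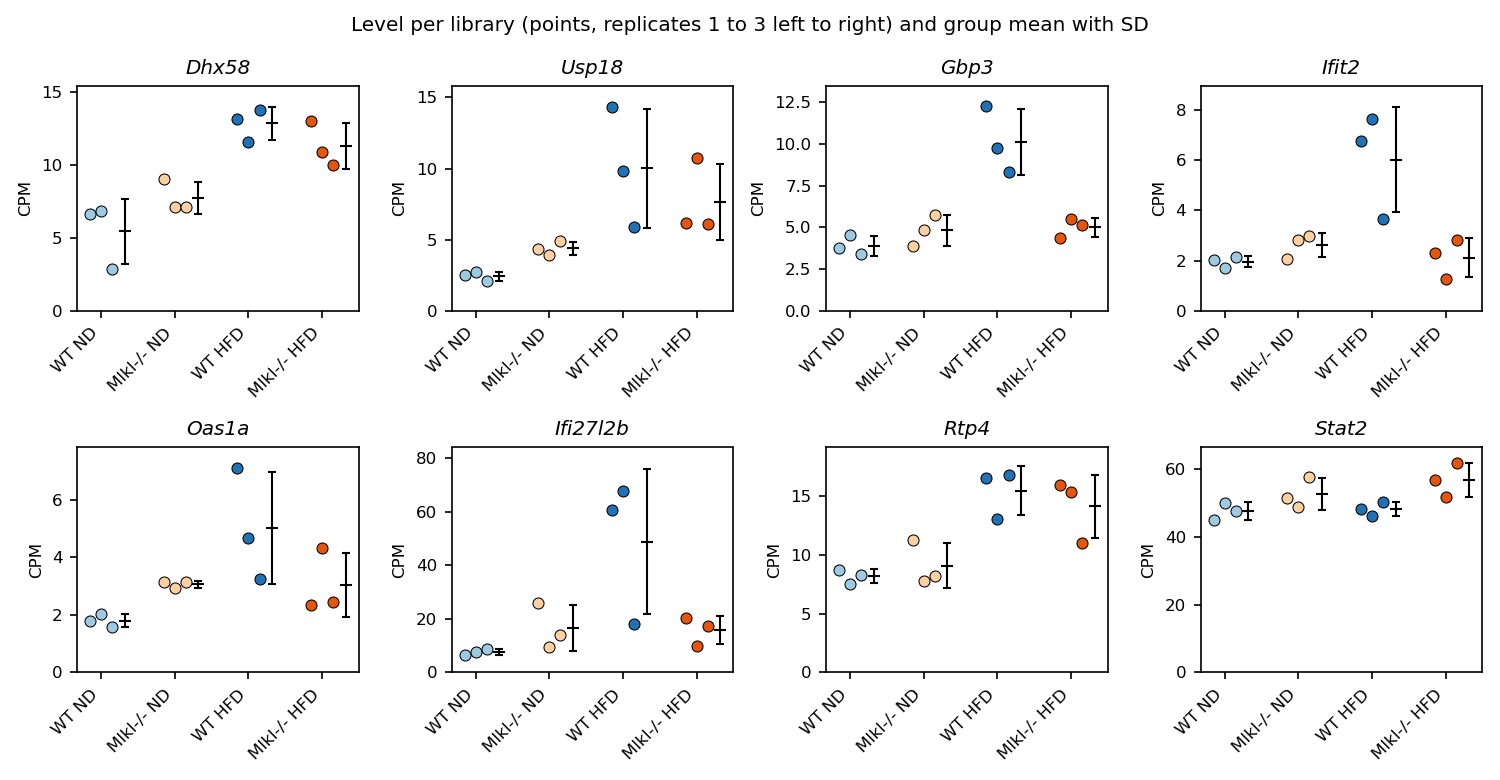
Level in CPM (y axis from 0) of 8 members in each library, with 3 points per group and the group mean with its SD (n = 3) as a bar beside them. Gbp3 and Ifit2 lie highest in the 3 wild-type HFD livers, Rtp4 is higher on HFD in both genotypes with overlap in Mlkl-/- livers, and Stat2 lies between 44.9 and 61.8 CPM in all libraries.

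Members differed in how closely they followed one another across the 12 livers. The mean deviation of the 37 members from their own means, in log2 units, was -0.31, -0.31 and -0.47 in wild-type ND and 0.70, 0.36 and 0.20 in wild-type HFD. The Mlkl-/- libraries had values of -0.24, -0.18 and 0.09 on ND and -0.15, 0.14 and 0.17 on HFD. Wild-type HFD replicate 1 was thus the highest library, and the Mlkl-/- livers overlapped between diets. Of the 37 members 21 had their highest level in wild-type HFD replicate 1, 6 in replicate 2 and 4 in replicate 3 of that group. The shares of all genes highest in each library were not counted. The correlation of a member with the mean of the other members over the 12 libraries, which share depth and scaling, had a median Pearson's r of 0.70. It was highest for Gbp3 (0.94), Oas1g (0.92), Ifit3b (0.90) and Usp18 (0.90), and lowest for Bst2 (-0.18), Mx2 (-0.15), Ifi47 (0.07) and Stat2 (0.09).

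The pathway around the members was described from 4 lists. None of the 21 interferon ligand genes passed the filter on low counts, and 18 were at 0 in all libraries. Ifng, the gene of interferon gamma, was detected with at most 6 counts, in wild-type HFD replicate 2, and Ifnk and Ifnz with at most 1. Of the 19 receptor and signalling genes reported here 18 passed the filter. In wild-type livers 0 were called higher on HFD and 1 lower, against 2.02% and 2.21% of all genes. The 1 was Irf5, a factor that drives inflammatory cytokines (-0.79 ± 0.21, edgeR adjusted p = 0.0471). The receptor chains Ifnar1, Ifnar2, Ifngr1, Ifngr2 and Il10rb were detected and not called, and Ifnlr1 did not pass the filter. Irf5 was also called in the diet effect averaged over genotypes, and 0 of the 18 in the 5 other comparisons. Of 20 listed sensing genes 17 were in the table under those symbols and passed the filter, and 0 were called in any comparison. Of 72 other interferon-induced genes 68 passed the filter. In wild-type livers 8 were called higher and 0 lower on HFD, against 2.02% and 2.21% of all genes. The 8 were Samhd1, Parp12, Dtx3l, Lgals3bp, Slfn9, Znfx1, Gbp6 and Gbp10. Gbp10 (1.62 ± 0.26) and Gbp6 (1.5 ± 0.27), guanylate-binding proteins like Gbp3, changed most of these. The diet effect averaged over genotypes called 11 of the 68 higher, against 3.57% of all genes. These were Dtx3l, Trim34a, Slfn9, Znfx1, Oas1c, Cxcl10, Gbp6, Gbp10, Ube2l6, Zc3hav1 and Shisa5. In the 5 other comparisons 0 of the 68 were called.

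Markers of some other liver cell types also differed between the groups. The 12 Kupffer cell markers summed to 311, 289 and 219 CPM in wild-type ND and to 474, 426 and 333 CPM in wild-type HFD, and to 191, 320 and 372 CPM in Mlkl-/- ND and 190, 162 and 304 CPM in Mlkl-/- HFD. All 12 were measured, 0 were called in wild-type livers, and none was at 0 in all libraries. The 12 markers of recruited macrophages summed to 91.8 to 115 CPM in wild-type ND, 99.8 to 261 in wild-type HFD, 122 to 168 in Mlkl-/- ND and 74.3 to 107 in Mlkl-/- HFD. Of the 12, 5 were called higher on HFD in wild-type livers, Ccr2, Cx3cr1, Gpnmb, Mmp12 and Ccl2, against 2.02% of all genes. In wild-type HFD replicate 3 this sum was 99.8 CPM, inside the wild-type ND range, and Lyz2 (55.7), Spp1 (19.8) and Cd9 (12.8) held most of it. Each of the 5 called markers lay above all 3 wild-type ND livers in that library, with Ccr2 at 2.41 CPM against at most 1.57. These 5 were called with that library in the group, so their level there is not a separate observation. Of the other markers, Itgam also lay above the wild-type ND livers. Itgax, Trem2, Lyz2 and Ly6c2 lay inside the wild-type ND range there, and Spp1 and Cd9 lay below it. The mean deviation of the members in that library, 0.20, lay above that of all 3 wild-type ND livers. The 8 endothelial markers summed to 164 to 238 CPM in wild-type ND, 207 to 330 in wild-type HFD, 141 to 223 in Mlkl-/- ND and 112 to 139 in Mlkl-/- HFD. Fcgr2b was called lower in Mlkl-/- than in wild-type livers on HFD, against 0.0221% of all genes. The 14 T and NK cell markers summed to 2.70 to 7.17 CPM and the 7 neutrophil markers to 3.19 to 9.28 CPM over the 12 libraries. The 8 markers of plasmacytoid dendritic cells, which secrete type I interferon, summed to 1.38 to 4.14 CPM in wild-type ND, to 20.9, 50.6 and 2.65 CPM in wild-type HFD, to 1.86 to 10.4 CPM in Mlkl-/- ND and to 3.05 to 4.57 CPM in Mlkl-/- HFD. Only 2 of them passed the filter, 0 were called, and 1 gene, Ly6d, held 19.6, 49.0 and 1.78 CPM of the wild-type HFD sums. In replicate 3 this sum lay inside the wild-type ND range. Ccr9, the other marker that passed the filter, stood at 0.401, 0.516 and 0 CPM in wild-type HFD, against 0.147 to 0.769 in wild-type ND. Siglech stood at 0.360, 0.455 and 0.338 CPM in wild-type HFD, against 0.0982 to 0.470 in wild-type ND. The 7 B cell markers summed to 190, 12.4 and 10.3 CPM in wild-type ND and to 21.9, 32.1 and 18.85 CPM in wild-type HFD. In Mlkl-/- livers they summed to 18.7, 11.4 and 23.7 CPM on ND and to 11.1, 147.5 and 96.2 CPM on HFD. These sums were thus uneven within groups. All 7 passed the filter and 0 were called in wild-type livers. The 9 hepatocyte markers in the table were abundant in all libraries, and their sums ran from 106960 to 112370 CPM in wild-type ND, 66102 to 89889 in wild-type HFD, 83069 to 116692 in Mlkl-/- ND and 86518 to 110989 in Mlkl-/- HFD. The wild-type HFD sums all lay below the wild-type ND sums. Ahsg and Fgb were called lower on HFD in wild-type livers, against 2.21% of all genes. The median log2 fold change of the 9 was -0.56 in wild-type livers and -0.01 in Mlkl-/- livers. The part of cell composition in the members' levels was not tested.

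**Figure D5:**
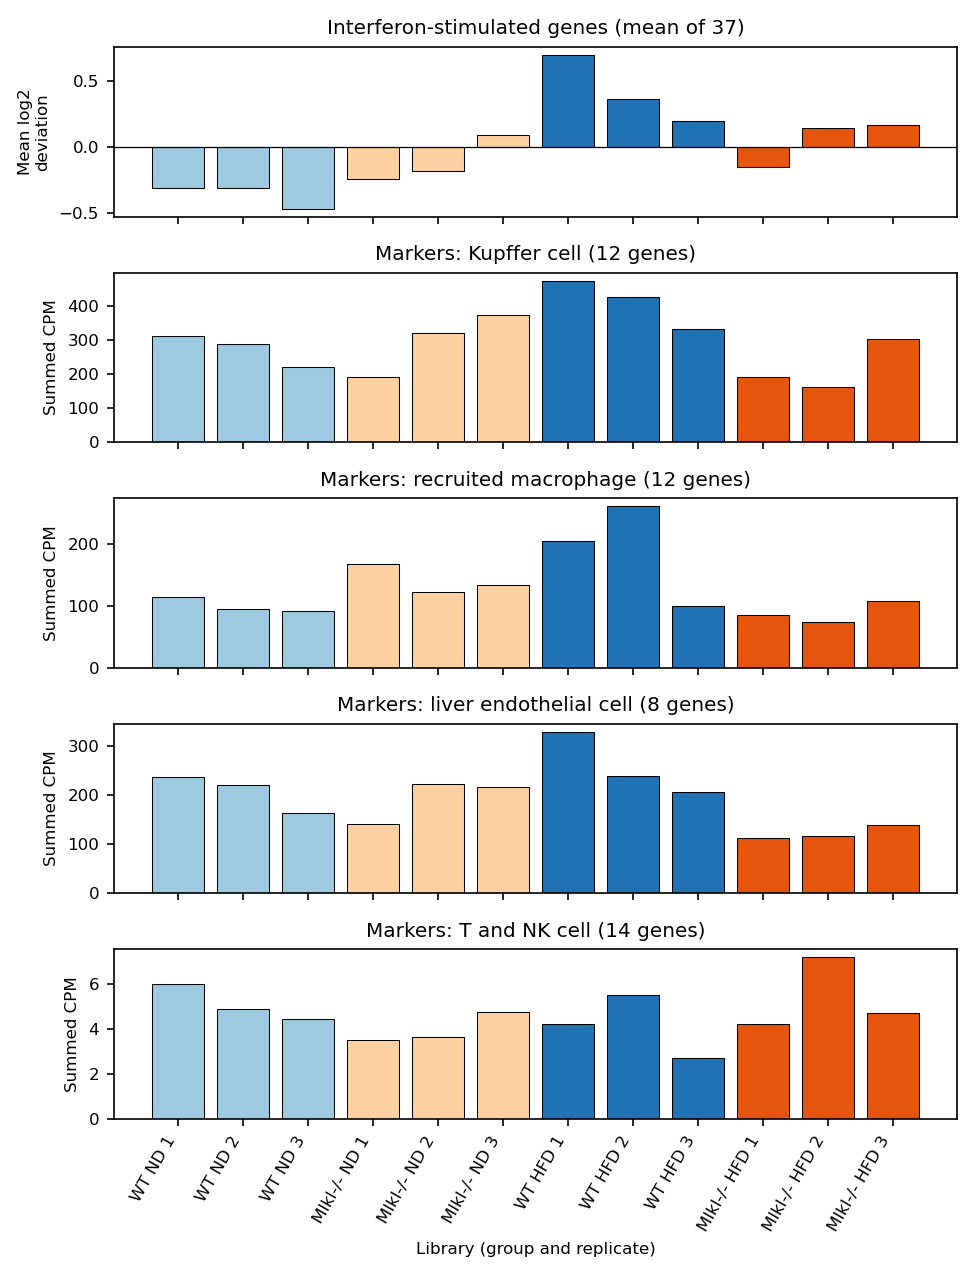
Mean log2 deviation of the 37 members (top panel) and summed CPM of the markers of 4 cell types (lower panels) in each of the 12 libraries, as bars from 0. Kupffer cell and endothelial sums are high in wild-type HFD replicate 1, the library with the highest member level of 0.70, and T and NK cell markers stay at or below 7.17 CPM.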

How the data were processed

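Liver RNA of 12 mice was sequenced with the QuantSeq 3' kit on a NextSeq 500, per the labels' protocols. The authors deposited raw counts per Ensembl gene and library, without normalization. The submitters' processing notes name cutadapt 1.9, HISAT2, featureCounts, limma and the mm10 build. The annotation, the strand setting, other versions and the treatment of multiply mapped reads are unknown here. Groups follow the genotype and diet labels. Library totals ran from 19435391 to 32120426 counts, and counting error covers sampling only. No 2 libraries of a group agreed within sampling noise (chi-square per degree of freedom of 19.4 or more). P-values measure the spread between these animals.

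Tests used edgeR 4.0.16 in R 4.3.3: filterByExpr (10 counts, 15 in total), TMM factors of 0.922 to 1.16, robust glmQLFit on group means (8 residual degrees of freedom), and glmQLFTest for 7 comparisons, adjusted over 18098 genes. SE is the log2 fold change divided by the root of the F statistic, and log CPM used a prior count of 2. Alternatives were other size factors, filters and dispersions, DESeq2 1.42.0, voom in limma 3.58.1, fits of the compared groups, the title code level or, chosen after seeing the data, the level at 8 loci as a term, and each library left out. Members and lists were chosen with earlier results of these data known, and no test was made over a list. One gene of the receptor and signalling list is not reported here, and the counts of that list leave it out. Members called in a comparison, Stat2, Irf9, Irf7, Isg15 and the near copies are given in every library, and the others by range and fold change. Motifs were counted in RefSeq promoters of GRCm38.p6.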

Additional observations from a re-analysis of the deposited data

Results flagged for a closer look

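Ifi44, an interferon-induced protein of the cytoplasm, moved in opposite directions between genotypes on the 2 diets. On ND all 3 Mlkl-/- livers (1.92, 1.95 and 3.36 CPM) lay above the 3 wild-type livers (1.79, 1.03 and 1.80 CPM), and on HFD all 3 Mlkl-/- livers (1.76, 2.31 and 2.84 CPM) lay below them (5.01, 3.61 and 3.42 CPM). The interaction of genotype and diet was -1.43 ± 0.45 on the log2 scale (edgeR adjusted p = 0.392) and did not pass. The lead of Mlkl-/- over wild-type livers on ND was 1.92 against 1.80 CPM at its narrowest.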

How the results depend on the processing

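Of 13 calls for diet in wild-type livers, those of Usp18 and Gbp3 held in all 22 alternative fits, and no called member changed direction. The count of called members was 20 with library size only (5.09% of all genes called higher), where the median rose to 0.92 and that of all genes to 0.19. The count was 8 once the 8-locus level was a term (0.525%). It ran from 3 to 18 over the 12 fits without 1 library, and the median from 0.63 to 0.86. The 18 were called without Mlkl-/- ND replicate 1, where 3.4% of all genes were called higher. In Mlkl-/- livers the median was 0.34 with the 8-locus term and 0.07 to 0.22 without 1 library. In these fits 0 to 1 members were called, Rtp4 without Mlkl-/- ND replicate 1 (0.85, edgeR adjusted p = 0.0319), where 2.3% of all genes were called higher. For genotype on ND, DESeq2 called 1 member higher (0.0749% of all genes), and the median ran from 0.11 to 0.26 without 1 library and was 0.09 with library size only. For genotype on HFD, library size only called 1 member lower (34 of all genes), no filter beyond 1 count 2 (95 of all genes) and DESeq2 2 (273 of all genes). The fits without 1 library called 0 to 3, and the 3 were called without wild-type HFD replicate 3, where 147 of all genes were called lower. Their medians were -0.43 to -0.11, where the 8-locus term gave -0.20 and library size only -0.50. For the interaction DESeq2 called 2 members lower (35 of all genes), and the medians without 1 library were -0.62 to -0.29. The diet effect averaged over genotypes called 19 members with library size only (9% of all genes called higher) and 4 with the 8-locus term (0.365%), whose median was 0.67. Without 1 library it called 6 to 14, with medians of 0.37 to 0.54. The 14 were called without Mlkl-/- ND replicate 1, where 6.61% of all genes were called higher. For genotype averaged over diets the medians without 1 library were -0.16 to 0, that with the 8-locus term was 0.06 and that with library size only -0.21, where all genes had -0.1. The member level of wild-type HFD replicate 2 was 0.57 with library size only. The longer response element was found in 10 members. The causes of these shifts were not tested. No paired analysis was possible because the labels give the groups no shared replicate numbers, only a title code that several libraries of a group share. With its level as a term 15 members (1.77% of all genes) were called higher for diet in wild-type livers, with a median of 0.77. Members with few counts, such as Oas3, Mx1 and Oas2, have wide errors at this depth.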
